A study of Mus musculus with 4 samples.

Results

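The 39 interferon response and MHC class I genes described here were taken by symbol from a table of 27179 genes measured by RNA-Seq in cultured group 2 innate lymphoid cells (ILC2s), and all 39 symbols were found in it. They were grouped by role into 4 sensors of RNA and DNA, 6 transcription factors and coactivators, 12 antiviral effectors, 6 genes of the ISG15 system and other regulators, 5 interferon-inducible GTPases and 6 genes of MHC class I presentation. ILC2s had been sorted from the large intestine of C57BL/6 wild-type mice (CD45.2+ Lin- CD127+ KLRG1+ cells). They were grown for 5 days with the cytokines IL-33, IL-25, IL-7 and IL-2, each at 10 ng/mL. They then served as controls, called vehicle here, or received deoxycholic acid (DCA, 100 μM), a secondary bile acid made by gut bacteria. There were 2 libraries per treatment, and values are given for replicate 1 and then for replicate 2. The exposure is given as 16 hours with the deposited data and as 24 hours in the methods. The comparison asks how DCA changes the transcripts of ILC2s. No interferon was among the cytokines listed for the culture, so every level below is that of cells in ILC2 medium, without or with DCA. The sources do not say whether the libraries of a treatment came from separate mice or cultures, so the p-values measure only the spread between these libraries, which may be technical. In bulk RNA, fewer cells that make a transcript and less of it per cell cannot be told apart.

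Interferons are secreted proteins that bind receptors linked to the kinases JAK1, JAK2 and TYK2. Type I interferons act through a complex that holds STAT2 and IRF9 and binds the interferon-stimulated response element (ISRE), and interferon γ acts on the gamma-activated site (GAS). The induced genes include sensors of viral RNA, enzymes that degrade or edit RNA, GTPases that attack intracellular microbes, and the machinery that loads peptides on MHC class I for display to CD8 T cells. Some of them can also be induced by cytokines other than interferon.

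Total counts were between 26564059 and 35838342 in vehicle replicates 1 and 2 and DCA replicate 1, and 244165712 in DCA replicate 2, so that 3 counts were worth between 0.0821 and 0.115 counts per 1000000 counts of the library (CPM) in the shallower libraries and 0.0125 CPM in the deepest. All 10 ILC2 markers examined had a mean of at least 1 CPM and summed to 13954 to 15451 CPM with vehicle and 15859 to 18330 CPM with DCA, of which Il5 made up the largest part. Of the 10, 5 were higher and 5 lower with DCA, with a median log2 fold change of -0.004. Klrg1, used in the sort, was at 688 and 678 CPM in vehicle libraries against 463 and 356 in DCA libraries. Its log2 fold change was -0.74 (adjusted p = 0.999 in edgeR and 0.0453 in DESeq2). Il1rl1, the IL-33 receptor, had a log2 fold change of -0.60 (unadjusted p = 0.023 in edgeR), and Areg also had -0.60. Il7r and Il5 went the other way, with log2 fold changes of 0.53 and 0.43. At an unadjusted p under 0.05 there were 2 of the 10 in edgeR (4.27% of all genes), Klrg1 and Il1rl1, both lower. DESeq2 gave 5 (7.01% of all genes), with Klrg1, Il1rl1 and Areg lower and Il7r and Il5 higher. Of 43 markers of 9 other cell types, 35 had a mean under 1 CPM and 16, Csf1r and Siglech among them, were listed at 0 in every library. The highest of the other 8 was Kit, at 359 and 279 CPM in vehicle libraries against 297 and 158.6 in DCA libraries. Cd68, a lysosomal gene used as a macrophage marker, was at 24.3 and 23.998 CPM in vehicle libraries against 7.31 and 10.2 in DCA libraries, and the other 5 markers of that list stayed under 1 CPM. The part of these other transcripts in the results below was not tested.

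Both interferon motifs were sought in the sequence before the start of the members. In the 250 bases before the start of RefSeq promoters (GRCm38.p6), the ISRE core GAAANNGAAA, sought on both strands, was present in 14 of the 33 members with a promoter in the table (42.4%), against 2.98% of 32851 promoters and 3.46% of 27025 genes. The GAS core TTCNNNGAA, which reads alike on both strands, was present in 9 of the 33 (27.3%), against 7.02% of promoters and 8.13% of genes. The 2 cores can overlap, as they did by a few bases in Bst2. The ISRE core was found in 11 of the 26 members in the table with a mean level of at least 1 CPM and in 3 of the 7 below it (Ifit1, Ifit3 and Rsad2). Matches are descriptions of letters, and no binding was measured.

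The stretches that follow show, 5′ to 3′ on the strand of the gene, the motif in capitals with up to 20 bases on each side, for a selection of members with high, intermediate and near-zero levels.
Oas1a (chr5:120907526-120907565, minus strand): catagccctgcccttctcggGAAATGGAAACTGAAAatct
Isg15 (chr4:156200855-156200916, minus strand): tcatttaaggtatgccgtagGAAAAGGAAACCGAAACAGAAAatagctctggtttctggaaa
Bst2 (chr8:71537567-71537622, minus strand): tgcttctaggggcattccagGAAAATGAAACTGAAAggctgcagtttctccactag
Ifit1 (chr19:34640784-34640833, plus strand): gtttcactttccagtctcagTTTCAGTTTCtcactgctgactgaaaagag
Ifit3 (chr19:34583387-34583436, plus strand): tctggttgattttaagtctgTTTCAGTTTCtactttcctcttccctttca
Irgm1 (chr11:48871421-48871470, minus strand): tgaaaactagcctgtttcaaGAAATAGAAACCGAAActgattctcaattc
Igtp (chr11:58199502-58199551, plus strand): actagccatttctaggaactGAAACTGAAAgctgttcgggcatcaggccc
B2m (chr2:122147528-122147577, plus strand): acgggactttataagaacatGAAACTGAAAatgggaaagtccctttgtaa
Irf1 (chr11:53769904-53769952, plus strand): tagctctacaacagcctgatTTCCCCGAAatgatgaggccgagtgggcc
The first 8 lines show ISRE cores and the Irf1 line a GAS core. In Oas1a, Isg15, Bst2 and Irgm1 overlapping ISRE cores formed 1 longer run, which ended 5 bases before the start in Oas1a, 57 in Isg15, 115 in Bst2 and 15 in Irgm1. The GAS core of Irf1 lay 90 to 82 bases before the start.

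**Figure D1:**
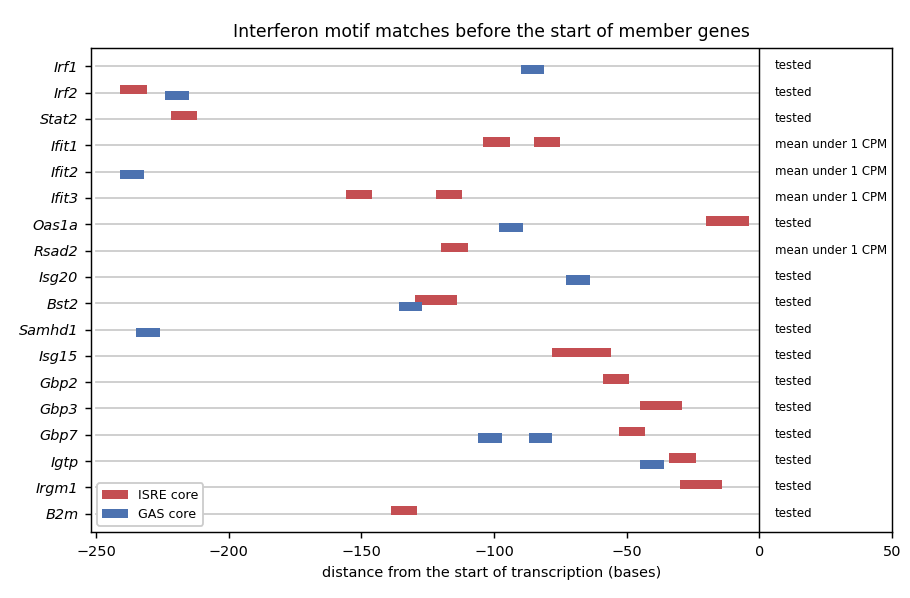
Position of ISRE core (red) and GAS core (blue) matches in the 250 bases before the start of transcription (x axis, bases, 0 is the start) in the 18 members with a match, and at the right whether the mean level was high enough to be tested. ISRE matches of the GTPase genes Gbp2, Gbp3, Gbp7, Igtp and Irgm1 and of Oas1a lie within 60 bases of the start, and the matches of Irf2, Stat2, Ifit2 and Samhd1 more than 200 bases away.

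Levels ran over the whole range of the libraries. Per kilobase of exon, the highest means over the 4 libraries were those of B2m (3729 CPM per kilobase), H2-D1 (1227) and H2-K1 (789), the light and heavy chains of MHC class I, followed by Igtp (116) and Ifi35 (111). At the other end, Mx1 and Ifi44 were listed at 0 in all 4 libraries. The 39 members together held 11056 and 9002 CPM in vehicle libraries against 11933 and 9694 in DCA libraries, and vehicle replicate 1 and DCA replicate 1 were the upper library of each pair.

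**Figure D2:**
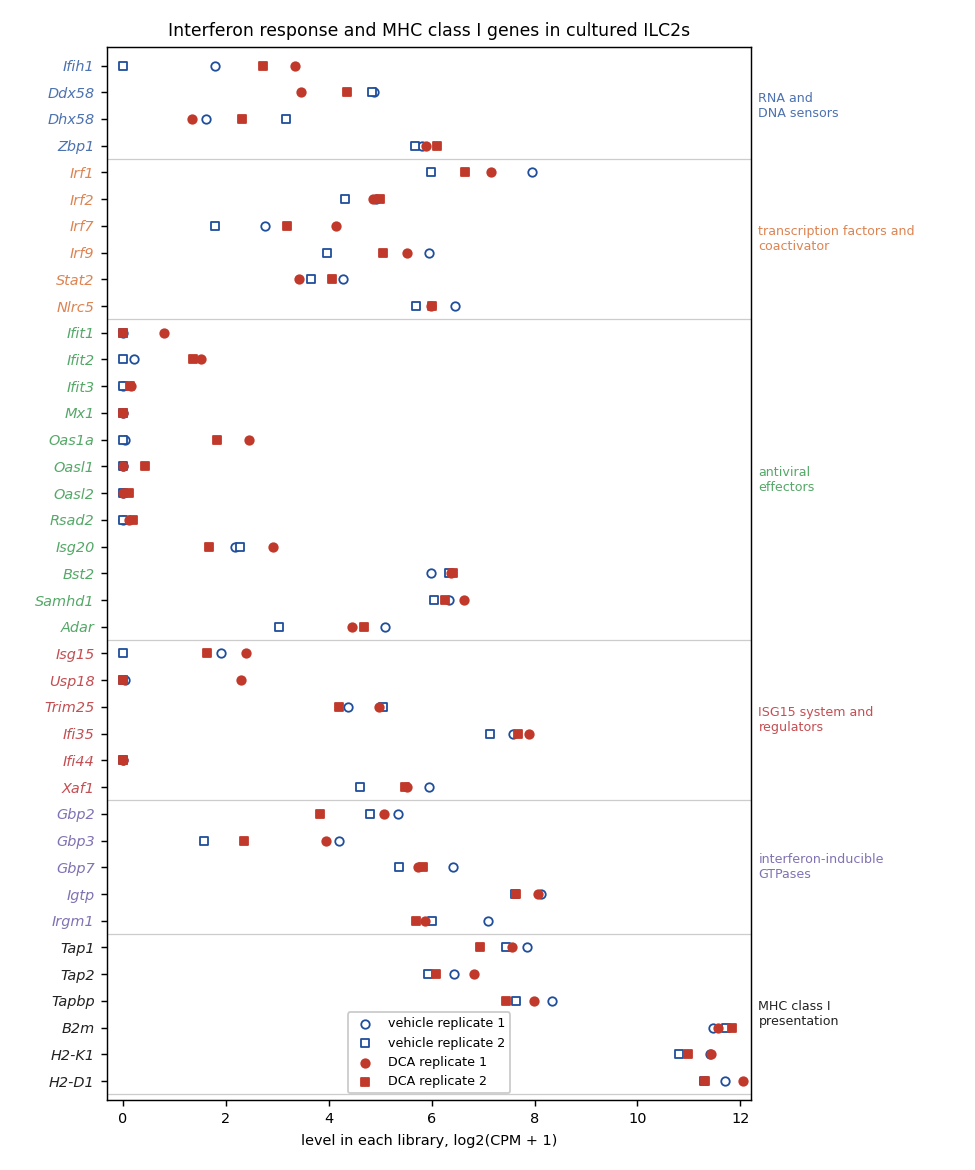
Level of each of the 39 members (rows, grouped and colored by role) in each library, as log2(CPM + 1) on the x axis, with vehicle as open blue and DCA as filled red symbols, circles for replicate 1 and squares for replicate 2. B2m, H2-K1 and H2-D1 lie at the far right, Mx1 and Ifi44 have all 4 symbols at 0, and Oas1a has both vehicle symbols at the left edge with both DCA symbols to their right.

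The 30 members with a mean of at least 1 CPM were tested, within a fit of all 11184 such genes, and 9 were not (Ifit1, Ifit2, Ifit3, Mx1, Oasl1, Oasl2, Rsad2, Usp18 and Ifi44). With DCA, 17 of the 30 were higher and 13 lower (50.7% of all genes tested were higher), with a median log2 fold change of 0.08 against 0.008 for all genes. By the quasi-likelihood test of edgeR with Benjamini-Hochberg adjustment, 0 members passed an adjusted p of 0.05 (0% of all genes), and each adjusted p was 0.999. At an unadjusted p under 0.05 there was 1 member, Oas1a (4.27% of all genes, 2.54% as higher and 1.73% as lower). Without a filter on low values there were 0 adjusted and 2 unadjusted (0.203% and 4.78% of all genes), and with DESeq2 there were 0 adjusted and 2 unadjusted (1.13% and 7.01% of all genes), Oas1a and Irgm1. Both DCA libraries lay above both vehicle libraries in 6 members (18.6% of all genes), Ifih1, Zbp1, Irf7, Oas1a, Bst2 and Ifi35, and below both in 2 (14.7% of all genes), Ddx58 and Irgm1, so 26.7% of members did not overlap, against 33.3% of all genes. Oas1a was among those tested only through its DCA libraries, so it had to differ, and no weight is put on its place in these counts. With 2 libraries a treatment, an exact permutation test cannot give a p below 0.333. Single libraries moved the median log2 fold change of the 30 members. Fits that leave 1 library out let the lone library of its treatment vary like the other treatment. The median was 0.39 without vehicle replicate 1 (0.05 over all genes) and -0.09 without vehicle replicate 2 (0.05). It was -0.14 without DCA replicate 1 (-0.02 over all genes) and 0.19 without DCA replicate 2 (-0.04). No adjusted p of a member was under 0.05 in any of these fits.

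**Figure D3:**
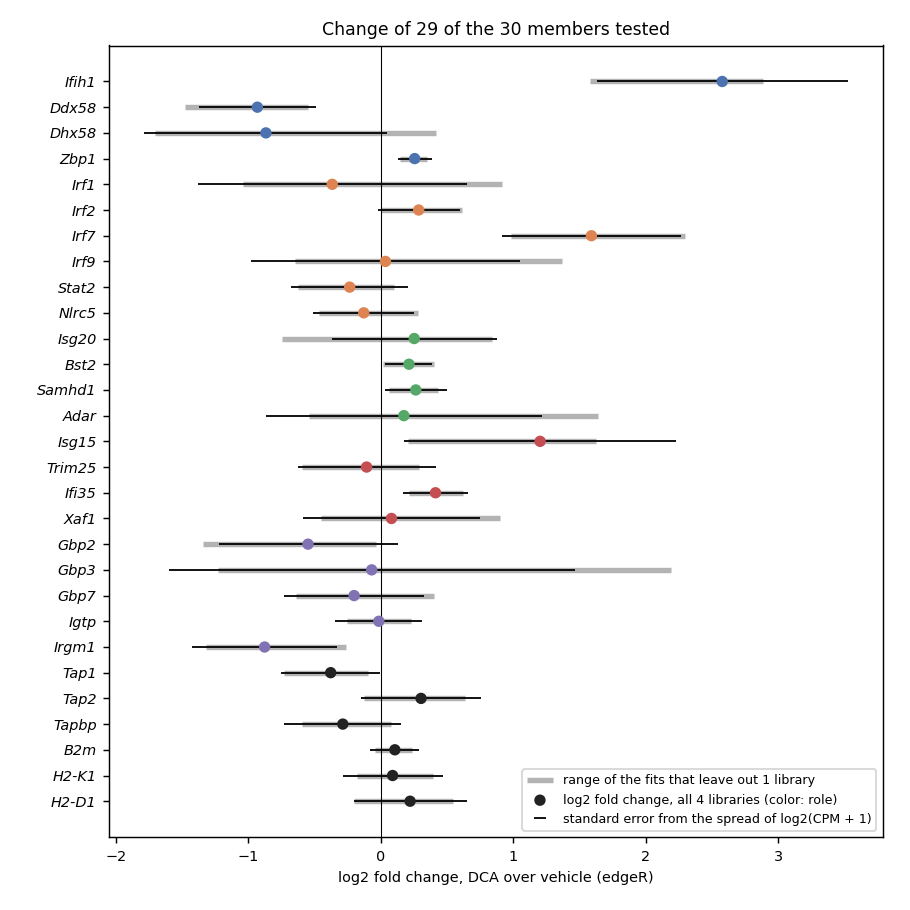
Log2 fold change with DCA over vehicle (x axis) for 29 of the 30 tested members (rows, colored by role), with the standard error of the difference in mean log2(CPM + 1) as a thin black line and the range over fits that leave out 1 library as a gray bar. The black line is centered on the fitted log2 fold change but is not the error of that fit. Oas1a is left out because both vehicle libraries were at or under 3 counts, and so are the fits of Ifih1 and Isg15 against a vehicle library at 0. Most gray bars cross 0, those of Ifih1, Zbp1, Irf2, Irf7, Bst2, Samhd1, Isg15 and Ifi35 lie to the right and those of Ddx58, Gbp2, Irgm1 and Tap1 to the left.

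The gap between the vehicle libraries was wider than the difference between treatments in most members, as it was in most genes. On the log2(CPM + 1) scale the median size of the gap between the vehicle libraries was 0.61 (0.56 over all genes tested) and that between the DCA libraries 0.52 (0.41), whereas the median size of the fitted log2 fold change was 0.26 (0.38). The vehicle gap exceeded the difference between treatments in 24 of the 30 (80.0%, against 64.9% of all genes). The gaps also ran 1 way. Vehicle replicate 1 lay above vehicle replicate 2 in 25 of the 30 (83.3%, against 50.9% of all genes), and DCA replicate 1 above DCA replicate 2 in 20 (66.7%, against 47.9%). Gbp3 and Adar had the widest vehicle gaps, and Irf1 and Irf9, which had about the same gap, came next. The sources do not say whether libraries of the same number shared a mouse or culture. The deviations from the treatment means correlated by 0.020 over all genes between libraries of the same number. That correlation was not computed for the members alone.

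**Figure D4:**
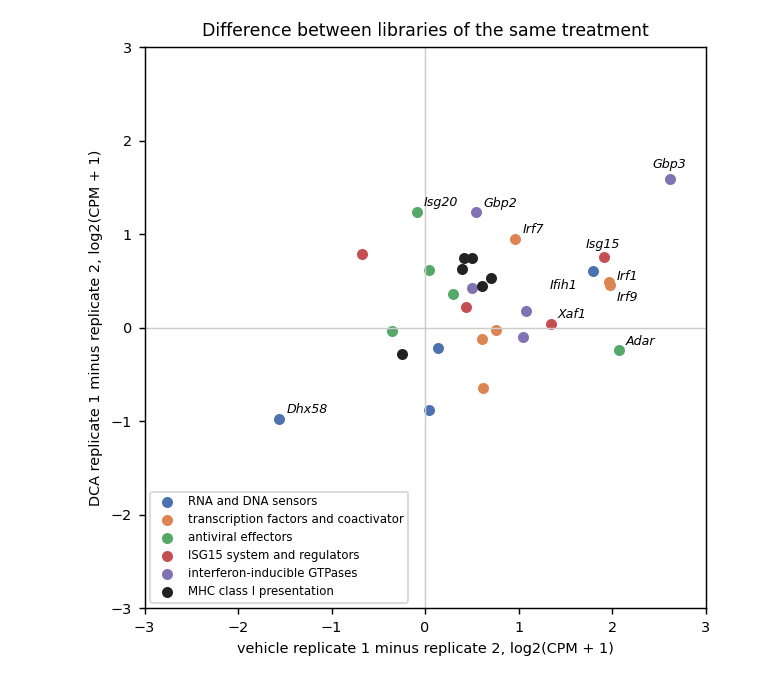
Vehicle replicate 1 minus vehicle replicate 2 (x axis) against DCA replicate 1 minus DCA replicate 2 (y axis), both as differences in log2(CPM + 1), for the 30 tested members colored by role. Points lie mostly right of the vertical line, 25 of 30, with Gbp3 far to the upper right and Dhx58 farthest to the lower left.

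Among the sensors, Ifih1 had more transcript with DCA in both libraries and Ddx58 had less, without passing the adjusted test. Ifih1 (Entrez 71586, chr2:62595618-62646255) encodes MDA5, which senses long double-stranded RNA. It had 90 and 0 counts in the vehicle libraries, or 2.46 and 0 CPM, and 295 and 1355 counts in the DCA libraries, or 9.13 and 5.64 CPM, so the libraries did not overlap. The log2 fold change was 2.58 (SE 0.95, unadjusted p = 0.276), and it was 1.58 without vehicle replicate 2, the library at 0. Each SE given here belongs to the difference in mean log2(CPM + 1), which was 2.14 for Ifih1, and not to the fitted log2 fold change. Ddx58 (Entrez 230073, chr4:40203777-40239825) encodes RIG-I, which senses short RNA with a 5′ triphosphate. Its CPM was 28.6 and 27.8 in vehicle libraries against 10.1 and 19.4 in DCA libraries, a log2 fold change of -0.93 (SE 0.44, unadjusted p = 0.131). The vehicle libraries were close together and both DCA libraries were below them, with DCA replicate 1 the lower. Dhx58, the gene of LGP2, which regulates the other RNA sensors, had 2.08 and 8.06 CPM in vehicle libraries against 1.55 and 3.997 in DCA libraries. Each treatment had its replicate 2 above its replicate 1, opposite to most members, and the treatments overlapped. Zbp1, a sensor of Z-form nucleic acids, was at 55.2 and 49.98 CPM in vehicle libraries against 58.0 and 67.5 in DCA libraries (log2 fold change 0.26, SE 0.13, unadjusted p = 0.432), higher in both DCA libraries. The median log2 fold change of the 4 sensors was -0.31, and it was 0.30 when vehicle replicate 2 was left out, -0.0060 when DCA replicate 1 was and -0.67 when DCA replicate 2 was.

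Of the transcription factors, Irf7 was the only one whose treatments did not overlap. Irf7 (Entrez 54123, chr7:141263183-141266499), which drives the amplified phase of the type I interferon response, was at 5.80 and 2.48 CPM in vehicle libraries against 16.8 and 8.19 in DCA libraries. The log2 fold change was 1.59 (SE 0.68, unadjusted p = 0.136) and ranged from 0.98 to 2.30 when 1 library was left out. The DCA libraries differed from each other by a log2(CPM + 1) of 0.95. Irf1 (Entrez 16362, chr11:53770014-53778374), an interferon-induced factor that switches on GTPase and MHC class I genes, was at 247 and 62.4 CPM in vehicle libraries against 141 and 99.5 in DCA libraries. Both DCA libraries lay between the vehicle libraries. The fitted log2 fold change of Irf1 was -0.37 with all libraries (unadjusted p = 0.565), and the difference in mean log2(CPM + 1) was -0.07 (SE 1.01). The fitted change was 0.92 without vehicle replicate 1 and -1.04 without vehicle replicate 2, so its direction was set by the vehicle library kept.

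Irf9, the DNA-binding subunit of the complex that type I interferon activates, had the same arrangement, at 60.7 and 14.7 CPM in vehicle libraries against 44.9 and 32.4 in DCA libraries (log2 fold change 0.035). Stat2, its partner, was at 18.4 and 11.7 CPM in vehicle libraries against 9.75 and 15.8 in DCA libraries. Irf2, which can hold back IRF1 targets, had 29.4 and 19.0 CPM in vehicle libraries against 28.2 and 30.8 in DCA libraries. Nlrc5, the coactivator of MHC class I genes, had 86.9 and 50.8 CPM in vehicle libraries against 62.6 and 63.4 in DCA libraries, its DCA libraries nearly equal and inside the vehicle range. Vehicle replicate 1 was the higher vehicle library in all 6 genes of this group, with a median gap of 0.86 on the log2(CPM + 1) scale, and the median log2 fold change was -0.05. That median was 0.76 without vehicle replicate 1, -0.50 without vehicle replicate 2, 0.04 when DCA replicate 2 was left out and 0.12 with the replicate block.

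The antiviral effectors divided into 7 genes at or near 0 and 5 with a mean of at least 1 CPM. All 7 had a mean under 1 CPM and 6 of them had at most 3 counts in each vehicle library. Mx1, a GTPase that blocks incoming viral nucleocapsids, had 0 counts in every library. With 0 counts, up to 0.0125 CPM is allowed in DCA replicate 2 and up to 0.115 CPM in vehicle replicate 2, for counting error only. These floors and the intervals below take counts as independent, and would understate the error if both reads of a pair were counted. Ifit1, which binds foreign RNA caps, had 24 counts in DCA replicate 1 (0.743 CPM) and 0 in the other 3 libraries. Ifit3, its binding partner, had 0 counts with vehicle in either library and 4 and 24 counts in the DCA libraries, and Rsad2, the gene of viperin, an enzyme that makes a chain-terminating nucleotide, had 0 likewise and then 3 and 36 counts. Of the 100-base stretches of the longest Ifit3 transcript, 31.65% also occur in other genes, most of all in Ifit3b. Oasl1 and Oasl2, relatives of the oligoadenylate synthetases, were detected in DCA replicate 2 alone, with 84 and 20 counts. DCA replicate 2 was the deepest library, and its 84 and 20 counts were 0.349 and 0.083 CPM, the latter at about the level of 3 counts in the others.

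Ifit2, another gene of the Ifit cluster on chromosome 19, had the most counts of the 7. It had 6 and 0 counts in vehicle libraries against 60 and 378 in DCA libraries, or 0.164, 0, 1.86 and 1.57 CPM. The DCA libraries together had 16.8 times the vehicle rate (95% exact Clopper-Pearson interval 7.65 to 46.0, counting error only), and with every detected gene kept in the fit its unadjusted p was 0.225 in edgeR. The 2 DCA libraries were close together and both were above the vehicle libraries.

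Oas1a was nearly undetected with vehicle and was present in both DCA libraries. Oas1a (Entrez 246730, chr5:120896256-120907544) encodes a 2′-5′ oligoadenylate synthetase, which activates RNase L in the presence of double-stranded RNA. It had 1 and 0 counts in vehicle libraries against 145 and 616 in DCA libraries, or 0.027 and 0 CPM against 4.49 and 2.56 CPM. Both vehicle libraries were at or under 3 counts and both DCA libraries were well above. The ratio of rates over both libraries of each treatment was 175 (95% exact interval 31.3 to 6923, counting error only), and it was 282 for DCA replicate 1 (49.7 to 11196) and 161 for DCA replicate 2 (28.7 to 6358) against the pooled vehicle libraries. Its p-values are a description, since it was tested only through its DCA libraries. The unadjusted p was 0.026 in edgeR and 0.002 in DESeq2, where the adjusted p was 0.111. With the replicate number as a block its unadjusted p was 0.072. Of the 100-base stretches of its longest transcript, 40.9% also occur in other genes, most of all in Oas1g, so reads can be split between these copies. Oas1g itself had 20 counts in vehicle replicate 1 and 0 in the other libraries.

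The remaining 4 tested effectors overlapped between treatments, except Bst2, which nearly did. Bst2, the gene of tetherin, which holds budding virions at the cell surface, was at 62.7 and 80.4 CPM in vehicle libraries against 81.9 and 83.9 in DCA libraries (log2 fold change 0.21, SE 0.18, unadjusted p = 0.484). Both DCA libraries exceeded both vehicle libraries, though DCA replicate 1 hardly exceeded vehicle replicate 2. Samhd1, a hydrolase of deoxynucleotides, was at 79.5 and 64.7 CPM in vehicle libraries against 97.5 and 75.8 in DCA libraries. Adar, which edits adenosine in double-stranded RNA, was at 33.4 and 7.18 CPM in vehicle libraries against 20.9 and 24.8 in DCA libraries, both DCA libraries inside the vehicle range. Isg20, an exonuclease, was at 3.53 and 3.82 CPM in vehicle libraries against 6.56 and 2.2 in DCA libraries, its vehicle libraries close together and inside the DCA range. These 4 had log2 fold changes from 0.17 to 0.26. Isg20 turned to -0.75 without DCA replicate 1 and Adar to -0.54 without vehicle replicate 2. The median of the 5 tested effectors, Oas1a included, was 0.25, whatever size is taken for Oas1a, and it went up to 0.39 when vehicle replicate 1 was left out and to 0.44 when DCA replicate 2 was.

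In the ISG15 system, the modifier and its protease were detected at a few CPM or less. Isg15 (Entrez 100038882, chr4:156199424-156200818), a ubiquitin-like modifier, had 101 and 0 counts in vehicle libraries against 138 and 507 in DCA libraries, or 2.76 and 0 CPM against 4.27 and 2.11 CPM. Vehicle replicate 1 lay between the DCA libraries, and without vehicle replicate 2, the library at 0, the log2 fold change went from 1.20 (SE 1.03, unadjusted p = 0.637) to 0.21. Usp18, the protease that removes ISG15 and dampens the type I receptor, had 126 counts in DCA replicate 1 (3.90 CPM) and 1, 0 and 0 in the other libraries, so its transcript came from 1 of the 4 libraries. Ifi44, an interferon-induced cytoplasmic protein, was at 0 throughout. Trim25, a ubiquitin ligase that acts on RIG-I, was at 19.7 and 32.1 CPM in vehicle libraries against 30.7 and 17.3 in DCA libraries, the treatments overlapping fully. Xaf1, a proapoptotic factor, was at 60.7 and 23.3 CPM in vehicle libraries against 45.1 and 43.8 in DCA libraries.

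Ifi35, an interferon-induced leucine zipper protein, had the highest level per kilobase of that group. It was at 189 and 139.9 CPM in vehicle libraries against 236 and 203 in DCA libraries, and both DCA libraries were the higher. The log2 fold change was 0.41 (SE 0.24, unadjusted p = 0.155), with a range of 0.21 to 0.62 when 1 library was left out, and the gap between the vehicle libraries was larger than the difference between treatments. The median of the 4 tested genes of the ISG15 group was 0.25, with 0.76 when vehicle replicate 1 was left out and 0.38 when DCA replicate 2 was.

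The 5 GTPases all had a log2 fold change below 0, from -0.88 to -0.02 with a median of -0.20. Of them 0 had an unadjusted p under 0.05 in edgeR (4.27% of all genes). The direction rested on single libraries, as the median was 0.23 without vehicle replicate 1, -0.80 without vehicle replicate 2, -0.98 when DCA replicate 1 was left out and -0.04 when DCA replicate 2 was. The immunity-related GTPases Igtp and Irgm1 act on the vacuoles of intracellular pathogens, Irgm1 as a regulator that holds the others inactive on the cell's own membranes. Irgm1 (Entrez 15944, chr11:48865245-48871420) was at 135 and 63.7 CPM in vehicle libraries against 57.6 and 50.6 in DCA libraries, a log2 fold change of -0.88 (SE 0.54, unadjusted p = 0.075). Both DCA libraries were below both vehicle libraries, but vehicle replicate 1 stood well above the other 3, and without it the log2 fold change was -0.26. With DESeq2 the unadjusted p of Irgm1 was 0.044 and the adjusted p 0.685, and without a filter on low values the unadjusted edgeR p was 0.012. Igtp was at 277 and 196 CPM in vehicle libraries against 269 and 199.6 in DCA libraries, libraries of the same number being almost equal (log2 fold change -0.02, SE 0.33).

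The guanylate-binding proteins Gbp2, Gbp3 and Gbp7, encoded side by side on chromosome 3, coat microbes and their vacuoles. Gbp2 was at 39.8 and 27.02 CPM in vehicle libraries against 32.5 and 13.2 in DCA libraries, DCA replicate 2 being the lowest of the 4. Gbp3 was at 17.4 and 1.99 CPM in vehicle libraries against 14.4 and 4.12 in DCA libraries, so each treatment had 1 high and 1 low library and the means hardly differed. Gbp7 was at 84.7 and 40.3 CPM in vehicle libraries against 52.4 and 56.2 in DCA libraries, both DCA libraries inside the vehicle range. Vehicle replicate 1 was above vehicle replicate 2 in all 5 GTPases, with a median gap of 1.05 on the log2(CPM + 1) scale. Of the 100-base stretches of the longest transcript, 10.2% of Gbp7 and 5.67% of Igtp occur in other genes, and their counts are uncertain to that extent.

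The treatments overlapped in all 6 MHC class I genes, among them the 3 members with the highest levels per kilobase. H2-K1 (Entrez 14972, chr17:33996012-34000619) and H2-D1 (Entrez 14964, chr17:35263094-35267497) encode the classical heavy chains of these mice and B2m (Entrez 12010, chr2:122147687-122153082) the shared light chain. B2m was at 2825 and 3354 CPM in vehicle libraries against 3009 and 3640 in DCA libraries (log2 fold change 0.11, SE 0.18, unadjusted p = 0.614). H2-K1 was at 2711 and 1785 CPM in vehicle libraries against 2763 and 2019 in DCA libraries, and H2-D1 at 3339 and 2504 in vehicle libraries against 4265 and 2545 in DCA libraries. In both heavy chains replicate 1 was the higher library of each treatment, and in B2m it was the lower. Of the 100-base stretches of the longest H2-D1 transcript 4.64% occur in other genes, and of that of H2-K1 0%.

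The other 3 class I genes serve peptide transport and loading. Tap1 and Tap2 form the transporter that carries peptides into the endoplasmic reticulum, and Tapbp encodes tapasin, which bridges it to the heavy chains. Tap1 was at 229.6 and 174 CPM in vehicle libraries against 189 and 122 in DCA libraries (log2 fold change -0.38, SE 0.37, unadjusted p = 0.255). Tap2 was at 85.1 and 59.9 CPM in vehicle libraries against 113 and 66.5 in DCA libraries, and Tapbp at 323 and 198 in vehicle libraries against 253 and 174 in DCA libraries. The subunits of the transporter thus had fold changes of opposite sign, each within the spread of its libraries. The gap between the vehicle libraries exceeded the difference between treatments in all 6 class I genes, and their median log2 fold change was 0.10. It was 0.24 without vehicle replicate 1, -0.08 without vehicle replicate 2 and -0.18 without DCA replicate 1.

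Transcripts of the interferon genes examined, Ifnb1 and Ifng, were at or near 0, and no other interferon gene was examined. Transcripts of the type I and type II interferon receptors were present. Ifnb1, the gene of interferon β, had 0 counts in every library. Ifng, the gene of interferon γ, had 5 counts in vehicle replicate 1 and 0 in the others. Ifnar1 and Ifnar2 encode the type I receptor, the former at 68.0 and 52.9 CPM in vehicle libraries against 66.5 and 42.1 in DCA libraries, the latter at 49.8 and 31.1 in vehicle libraries against 65.2 and 65.8 in DCA libraries (log2 fold change 0.69, unadjusted p = 0.101). Ifngr1 and Ifngr2 encode the interferon γ receptor, and they were at 77.8 and 122.8 CPM and at 24.2 and 16.2 CPM with vehicle, against 74.4 and 85.9 CPM and 30.8 and 28.1 CPM with DCA. Both DCA libraries exceeded both vehicle libraries in Ifnar2 and Ifngr2, as in 18.6% of all genes, and the treatments overlapped in Ifnar1 and Ifngr1. Ifnlr1, of the type III receptor, had at most 28 counts in any library. The kinases were at 248 to 345 CPM for Jak1, 139 to 178 for Jak2 and 16.2 to 46.1 for Tyk2. Of the 24 genes of interferon ligands, receptors and signaling, 18 were tested, 10 of them higher and 8 lower with DCA. Their median log2 fold change was 0.09, and 0 had an unadjusted p under 0.05 in edgeR (4.27% of all genes). Both DCA libraries lay above both vehicle libraries in 6 of the 18 and below in 2, so 44.4% did not overlap (33.3% of all genes).

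Of 58 further interferon-stimulated genes, 41 were tested, 24 higher and 17 lower with DCA, with a median log2 fold change of 0.08, 0 at an adjusted p under 0.05 in edgeR and 2 at an unadjusted p under 0.05, a share near the 4.27% of all genes. DESeq2 gave 1 and 4 (1.13% and 7.01% of all genes). Both DCA libraries lay above both vehicle libraries in 9 of the 41 and below in 8, so 41.5% did not overlap (33.3% of all genes). The 2 in edgeR were Oas1c and Ifi47. Oas1c, a neighbor and relative of Oas1a, had 4 and 4 counts in vehicle libraries against 312 and 680 in DCA libraries, or 0.109 and 0.153 CPM against 9.66 and 2.83 CPM. The ratio of rates was 28.5 (95% exact interval 14.4 to 66.2, counting error only), the unadjusted p was 0.022 in edgeR, and the adjusted p was 0.048 in DESeq2. Like Oas1a, Oas1c passed the filter only through its DCA libraries, so it had to differ. Its p-values and interval are a description, and no weight is put on its place in the counts of this list. Ifi47, a GTPase of the same family as Irgm1, was at 165 and 197 CPM in vehicle libraries against 110.3 and 112 in DCA libraries (log2 fold change -0.70, unadjusted p = 0.025, adjusted p = 0.999 in edgeR and 0.277 in DESeq2). The gap between the treatments of Ifi47 was wider than that within either of them, and both DCA libraries were the lower, as in Irgm1.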

How the data were processed

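The deposited table holds whole-number counts of reads per gene for 4 libraries, made by the authors without normalization. Per the labels and methods, RNA was amplified with SMART-Seq HT, read pairs were trimmed with Cutadapt 1.9 and aligned to mm10 with HISAT2 2.2.1, and DESeq2 was used for changed genes. The counting tool, its annotation and its strand setting are not given in the sources used here, so values of overlapping or closely similar genes are uncertain. In vehicle replicate 1, 484 genes had 2 counts and 253 had 1, as when both mates are counted. The 1275 rows without a symbol were kept under their identifiers.

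Libraries were assigned to control or DCA by their labels, and those labeled Ctrl are called vehicle here. Counts were scaled by TMM, the 11184 genes averaging 1 CPM or more were kept, and DCA was compared with vehicle by the two-sided quasi-likelihood test of edgeR 4.0.16 (R 4.3.3) with Benjamini-Hochberg adjustment over all of them. Adjusted p-values were called at 0.05. DESeq2 1.42.0 and other scalings and filters, a replicate block, a thinned DCA replicate 2 and fits without 1 library were tried. The standard error is that of the difference in mean log2(CPM + 1), which can differ from the fitted log2 fold change beside it. For Gbp3 that difference was 0.26 and the fitted change -0.07. CPM in the text uses the TMM-scaled library size. Ratios of summed counts have exact Clopper-Pearson intervals at 95%. Sequencing reads carried no molecular identifiers, so intervals and floors of 3 counts cover counting error only. They take counts as independent, and the intervals are too narrow if both mates of a pair were counted. The fits were tried on simulated counts, where recovery of changed genes was required only at a small set spread. It was not required at the spread of these libraries. Gene positions and promoters come from RefSeq on GRCm38.p6, exon lengths and shared 100-base stretches from GENCODE M21. For 6 members no promoter was in the table (Tap2, Dhx58, Mx1, Zbp1, Usp18 and Nlrc5).

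The members, the further lists and the markers were chosen with earlier results of these data known, so no p was adjusted over a list alone. Genes named are all 39 members, the interferon, receptor and kinase genes listed with their values, and genes of the further lists with an unadjusted p under 0.05. Oas1g, Il5, Il7r, Areg, Klrg1, Il1rl1, Kit, Cd68, Csf1r, Siglech and the genes named in the closing observations were chosen after their values were seen. A further gene of the naming rule is not reported here.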

Additional observations from a re-analysis of the deposited data

How the results depend on the processing

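The count of members with an adjusted p under 0.05 was 0 under every alternative run. The count at an unadjusted p under 0.05, 1 at first, was 2 without a filter and with DESeq2, 0 with a mean of at least 5 CPM, which drops Oas1a, and 0 with the replicate block. It ranged from 0 to 7 over the fits without 1 library. Members higher with DCA numbered 17, and 13 to 23 without 1 library, and the median log2 fold change, 0.08, ranged from -0.14 without DCA replicate 1 to 0.39 without vehicle replicate 1. With all libraries kept, 1 member changed sign, Gbp3 with the replicate block, from -0.07 to 0.38. Of the 30 members tested, 13 kept their sign throughout, 9 higher and 4 lower, and 17 changed it without 1 library. The ranges without 1 library were -1.71 to 0.42 for Dhx58, -1.04 to 0.92 for Irf1, -0.65 to 1.36 for Irf9, -0.62 to 0.10 for Stat2, -0.46 to 0.28 for Nlrc5, -0.75 to 0.84 for Isg20, -0.54 to 1.64 for Adar, -0.59 to 0.29 for Trim25, -0.45 to 0.90 for Xaf1, -1.23 to 2.19 for Gbp3, -0.64 to 0.40 for Gbp7, -0.25 to 0.23 for Igtp, -0.13 to 0.63 for Tap2, -0.60 to 0.080 for Tapbp, -0.041 to 0.24 for B2m, -0.18 to 0.39 for H2-K1, -0.21 to 0.55 for H2-D1, -0.53 to 0.14 for Ifnar1, -0.64 to 0.043 for Ifngr1, -0.029 to 0.23 for Jak2 and -0.25 to 1.23 for Tyk2. The cause was not tested. Over all genes the count with an adjusted p under 0.05 was 0 at first, 36 without a filter and 126 with DESeq2. Levels under 3 counts could not be told from 0. No other call changed with the replicate block.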

Other observations

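Beyond the 6 class I members, 22 of 26 further genes of the MHC class I pathway had a mean of at least 1 CPM. With DCA 20 of the 22 were higher and 2 lower, with a median log2 fold change of 0.16, against 50.7% higher and a median of 0.008 over all genes tested. None had an unadjusted p under 0.05 in edgeR (4.27% of all genes), and DESeq2 gave 0 as well (7.01% of all genes). Without a filter on low values there was 1 (4.78% of all genes). Both DCA libraries lay above both vehicle libraries in 6 of the 22 and below in 0, so 27.3% did not overlap, against 18.6% of all genes above, 14.7% below and 33.3% in either direction. The median size of the vehicle gap was 0.27 on the log2(CPM + 1) scale, against 0.17 for the fitted log2 fold change. The vehicle gap exceeded the difference between treatments in 12 of the 22 (54.5%, against 64.9% of all genes). The median of this list was not recomputed without 1 library. Psmb10, a catalytic subunit of the immunoproteasome, the protease that cuts peptides for class I, was at 140.3 and 92.7 CPM in vehicle libraries against 184.5 and 169 in DCA libraries (log2 fold change 0.60, unadjusted p = 0.078). Its partner subunit Psmb8 was at 844 and 708 CPM in vehicle libraries against 765 and 991 in DCA libraries, and Psmb9 at 183 and 202 in vehicle libraries against 206 and 214 in DCA libraries. Psmb9 was the higher in both DCA libraries, and Psmb8 overlapped. The nonclassical gene H2-T23, whose product Qa-1 is a ligand of inhibitory receptors of NK cells, was at 566 and 320.0 CPM in vehicle libraries against 711 and 528 in DCA libraries, the treatments overlapping. Vehicle replicate 1 was above vehicle replicate 2 in 19 of the 22 (86.4%), as in the members, whereas in the 41 further interferon-stimulated genes tested it was above in 20 (48.8%). DCA replicate 1 was above DCA replicate 2 in 17 of the 22 (77.3%) and in 29 of the 41 (70.7%), against 47.9% of all genes.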
